A study of Arabidopsis thaliana with 47 samples.

Results

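The comparison described here sets plt2 roots that carried a genomic PLT2-GFP transgene with a cysteine to serine substitution in PLT2 (plt2/gPLT2C212S-GFP, below gPLT2C212S) against plt2 roots without a transgene, both under mock treatment. It rests on 10 of the 47 libraries of the series, 5 from gPLT2C212S roots and 5 from plt2 roots, chosen by genotype and treatment alone. PLT2 (PLETHORA 2) is a transcription factor known for its gradient in the root tip, and the series asks how the stability of its protein acts in root development. All Arabidopsis thaliana seedlings grew for 6 days on MS plates before a 24 h mock treatment without added RGF1, the peptide that the other seedlings of the series received at 0.3 or 5 nM. Each library came from 50 sections of the root meristematic zone, the tip region where cells divide. The plt2 mutation was present in both groups, and another genotype used for comparison, plt2/gPLT2-GFP (gPLT2), carried the transgene without the substitution. The labels give neither the number of independent transgenic lines nor the promoter, the hour of harvest or whether replicates were grown apart, so p-values may measure technical spread only. Effects of the substitution, of the transgene and of its insertion site cannot be told apart here.

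PLETHORA proteins act in a graded manner along the root tip. High levels maintain stem cells, intermediate levels go with division, and low levels allow cells to expand and mature. RGF peptides are small secreted signals that must be sulphated by the enzyme TPST; they are perceived by leucine-rich repeat receptor kinases and are known to widen the zone in which PLT2 protein is found. The RNA measured here reports transcripts, so it shows neither the amount of PLT2 protein nor the altered residue.

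Levels are CPM, counts scaled to the same library total, computed without 14 loci dominated by organelle and ribosomal RNA. A gene is called higher or lower at an adjusted p under 0.05 from edgeR's quasi-likelihood test over all 15998 genes tested, and each log2 fold change is gPLT2C212S over plt2, with its standard error (SE). Between gPLT2C212S and plt2, 1093 genes were higher (6.83% of those tested) and 1895 were lower (11.8%), together 2988 (18.7%). These percentages are the background against which counts of any gene group below are to be read. At least 2-fold differences were estimated for 280 of the higher and 671 of the lower genes. All gPLT2C212S libraries lay above all plt2 libraries for 780 genes (4.88%), and below them for 1366 genes (8.54%). Scaling by total counts, which moved the median log2 fold change of all genes to -0.20, left 335 higher and 2637 lower genes, so the balance of directions depends on the scaling. The totals used there include organelle loci, unlike the CPM levels. The mitochondrial share of the counts differed between the groups (mean 63.9% in gPLT2C212S and 54.6% in plt2), so total-count scaling here and below carries that difference into every gene.

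The libraries were of similar size, with 8075980 to 9380082 counts in gPLT2C212S and 8733865 to 9307980 in plt2. Mitochondrial loci took 63.9 ± 4.41% of the counts in gPLT2C212S and 54.6 ± 5.41% in plt2 (SD, n = 5 each, exact permutation test, two-sided p = 0.0318, smallest possible p 0.00794). Most of this lay in ATMG00020 and ATMG01390, which together took 62.0 ± 4.38% of the counts in gPLT2C212S and 53.1 ± 5.31% in plt2. Outside the 14 loci lay 3107195 to 3992785 counts in gPLT2C212S and 3744143 to 4856789 in plt2 (exact permutation p = 0.0238). Fewer loci had a count in gPLT2C212S, 22240 ± 615 against 23530 ± 495 in plt2 (exact permutation p = 0.0159). The mitochondrial share thus moved with the genotype, and its part in the gene differences was tested only by adding it as a covariate, which left 2367 called genes. Replicate 5 of plt2 was the lowest plt2 library for 894 of the 1895 lower genes (47.2%), and replicate 1 of gPLT2C212S was the highest library of its group for 723 of them (38.2%).

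The PLT2 transcript was far more abundant with the transgene than without it. PLT2 (AT1G51190, TAIR10 chromosome 1, 18977176 to 18980618, plus strand) had 55.3, 62.1, 77.7, 51.5 and 70.0 CPM in gPLT2C212S, against 5.57, 3.48, 10.2, 5.60 and 8.94 CPM in plt2. No values overlapped, and the lowest gPLT2C212S library stood above the highest plt2 library (log2 fold change 3.24, SE 0.22, adjusted p 1.27e-07). The roots with the unsubstituted transgene had 37.6, 43.6, 36.6, 41.6 and 37.9 CPM, and the gPLT2C212S level exceeded theirs as well (log2 fold change 0.69, adjusted p 0.00121). Reads from the transgene and from the mutant locus cannot be told apart in these counts. Leaving out any one library kept the PLT2 difference between 3.08 and 3.43.

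Other PLETHORA genes, which share functions with PLT2 in the root, changed little. PLT1 had 28.1, 24.7, 25.7, 24.03 and 22.1 CPM in gPLT2C212S, against 32.1, 29.1, 41.0, 32.1 and 37.9 CPM in plt2. All gPLT2C212S libraries lay below all plt2 libraries, by a narrow margin (log2 fold change -0.45, SE 0.14, adjusted p 0.0275). This call was fragile: without replicate 3 of plt2 the log2 fold change of PLT1 was -0.38 with an adjusted p of 0.0747, and leaving out gPLT2C212S replicate 2, 3, 4 or 5 moved the adjusted p to between 0.0543 and 0.0702. AIL6, also known as PLT3, had 98.0, 92.8, 99.4, 105 and 103 CPM in gPLT2C212S, against 117, 107, 111, 129 and 119 CPM in plt2; the groups did not overlap, but the difference missed the threshold (log2 fold change -0.22, SE 0.10, adjusted p 0.148). BBM (10.2 ± 1.90 CPM in gPLT2C212S and 8.36 ± 3.01 CPM in plt2) and AIL5 (4.20 ± 0.935 CPM in gPLT2C212S and 3.91 ± 2.22 CPM in plt2) overlapped between the groups and were not called. AIL7 and ANT, with at most 0.909 CPM in any of these libraries, were too low to test, and AT1G72570 had no count in any of them.

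Per transcript length, PLT2 came close to the level of AIL6 with the transgene. On the authors' FPKM scale, PLT2 stood at 28.0 ± 4.44 in gPLT2C212S and 2.98 ± 1.23 in plt2. AIL6 stood at 32.1 ± 1.39 FPKM in gPLT2C212S and 37.3 ± 2.71 in plt2, and PLT1 at 10.5 ± 1.05 FPKM in gPLT2C212S and 14.4 ± 2.14 in plt2 (SD, n = 5 each).

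**Figure D1:**
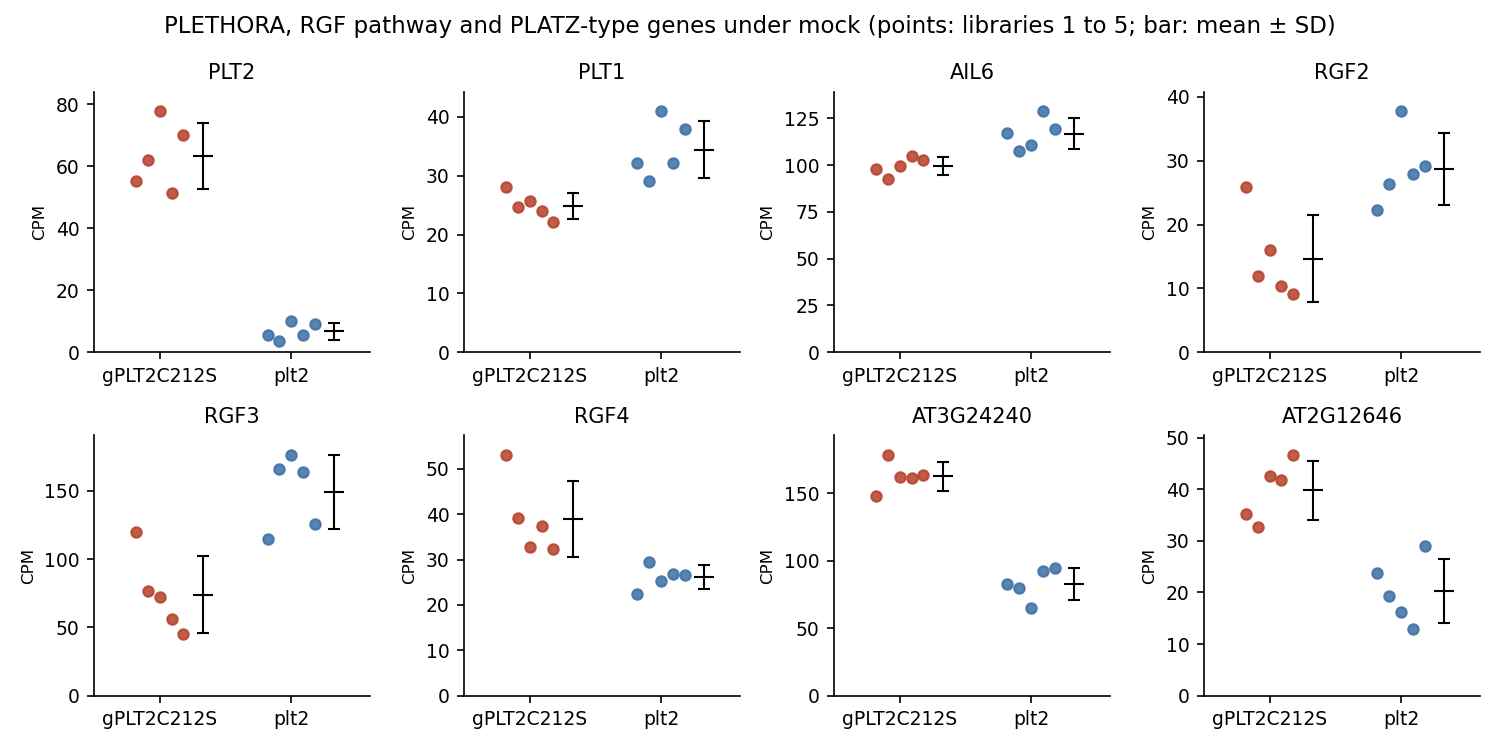
Levels of PLETHORA genes (PLT2, PLT1, AIL6), RGF precursor genes (RGF2, RGF3, RGF4), a receptor kinase of the RGF1 list (AT3G24240) and the PLATZ gene AT2G12646 under mock, as CPM (y axis, linear). Each point is a library of gPLT2C212S (left) or plt2 (right), with the mean and SD of 5 libraries; PLT2 averages 63.3 ± 10.7 CPM in gPLT2C212S and 6.75 ± 2.73 CPM in plt2, without overlap, while RGF2 and RGF3 overlap in gPLT2C212S replicate 1.

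Genes for the RGF peptides themselves moved in both directions. RGF3 had 119.5, 77.0, 72.2, 56.4 and 45.2 CPM in gPLT2C212S, against 115, 166, 176, 164 and 126 CPM in plt2. Replicate 1 of gPLT2C212S lay within the plt2 range and the rest of its group below it (log2 fold change -0.997, SE 0.21, adjusted p 0.00356). RGF2 had 25.9, 11.9, 15.9, 10.3 and 9.09 CPM in gPLT2C212S, against 22.3, 26.3, 37.8, 28.0 and 29.2 CPM in plt2, again with replicate 1 of gPLT2C212S alone inside the plt2 range (log2 fold change -0.96, SE 0.24, adjusted p 0.0108). RGF4 had 53.1, 39.2, 32.9, 37.5 and 32.4 CPM in gPLT2C212S, against 22.5, 29.6, 25.3, 26.8 and 26.6 CPM in plt2. Here every gPLT2C212S library was above every plt2 library (log2 fold change 0.59, SE 0.16, adjusted p 0.0145). The RGF4 call was lost under total-count scaling, where the log2 fold change of RGF4 was 0.37 (adjusted p 0.181), so of 6 tested genes 1 was higher and 2 were lower with the default scaling, and 0 and 2 with total-count scaling.

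The remaining RGF genes showed no call or were hardly detected. RGF1, the gene for the peptide used in the series, had 4.11, 2.68, 0.996, 2.86 and 1.82 CPM in gPLT2C212S, against 4.07, 4.22, 3.78, 3.83 and 4.24 CPM in plt2. Replicate 1 of gPLT2C212S lay within the narrow plt2 range and the rest of its group below it, but RGF1 was not called (log2 fold change -0.70, SE 0.34, adjusted p 0.165). RGF8 (14.7 ± 5.74 CPM in gPLT2C212S and 15.7 ± 3.60 CPM in plt2) and TPST (38.3 ± 5.32 CPM in gPLT2C212S and 43.8 ± 6.74 CPM in plt2) overlapped and were not called. RGF7 fell under the filter on low counts, with 2 counts over the gPLT2C212S libraries and 88 over the plt2 libraries, a plt2 over gPLT2C212S ratio of 38.6 (95% counting interval 10.4 to 323.4, counting error only). RGF5 stayed at or below 3.48 CPM in gPLT2C212S and 2.98 CPM in plt2, and RGF6 and RGF9 were each seen in a single library.

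Receptor kinases on the list for RGF1 perception split into members that rose and members that were not called. AT3G24240 had 148, 179, 162, 161 and 163 CPM in gPLT2C212S, against 83.1, 80.2, 64.8, 92.8 and 94.6 CPM in plt2. AT5G48940 had 125, 124, 122, 123 and 157 CPM in gPLT2C212S, against 74.3, 73.8, 81.0, 85.8 and 65.2 CPM in plt2. AT1G34110 had 125, 135, 133, 142 and 161 CPM in gPLT2C212S, against 90.6, 80.2, 68.3, 97.6 and 80.0 CPM in plt2. For each of these leucine-rich repeat kinases all gPLT2C212S libraries exceeded all plt2 libraries (log2 fold changes 0.98, 0.78 and 0.75, SE 0.12 each, adjusted p 2.37e-05, 0.000191 and 0.000305). The kinases AT4G26540 (49.4 ± 7.50 CPM in gPLT2C212S and 59.9 ± 5.10 CPM in plt2) and AT5G56040 (80.8 ± 9.94 CPM in gPLT2C212S and 94.2 ± 13.6 CPM in plt2) overlapped between groups and were not called.

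Downstream of the receptors, AT2G12646, a gene of the PLATZ transcription factor family, had 35.1, 32.7, 42.6, 41.8 and 46.7 CPM in gPLT2C212S, against 23.8, 19.4, 16.3, 13.0 and 28.9 CPM in plt2, without overlap (log2 fold change 0.97, SE 0.18, adjusted p 0.00132). The MAP kinase kinase genes MKK4 (0.08) and MKK5 (-0.01), the MAP kinase genes MPK3 (0.15) and MPK6 (-0.22), and the deubiquitinase genes UBP12 (-0.21) and UBP13 (0.06) had small log2 fold changes and none was called. In total, 4 of the 12 members tested were higher and 0 lower, in every alternative analysis that was run.

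Clock genes differed strongly, in both directions. In plants, CCA1 and LHY are MYB-like repressors that peak around dawn, and they repress evening genes such as TOC1, GI, ELF4 and PCL1 (also known as LUX) through the evening element, the sequence AAAATATCT. A few promoter stretches that hold this element upstream of the annotated gene start are shown because they belong to clock genes called in this comparison. They were read by coordinate from the TAIR10.1 assembly, run 5′ to 3′ along the gene's own strand, and have the element (or its reverse complement AGATATTTT) in capitals.
FKF1: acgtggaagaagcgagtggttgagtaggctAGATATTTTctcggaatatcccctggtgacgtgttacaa
PRR5: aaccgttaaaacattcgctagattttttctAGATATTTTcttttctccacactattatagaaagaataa
TOC1: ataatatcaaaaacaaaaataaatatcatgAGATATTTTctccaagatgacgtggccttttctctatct
PCL1: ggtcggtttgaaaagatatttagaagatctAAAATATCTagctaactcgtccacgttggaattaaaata
BOA: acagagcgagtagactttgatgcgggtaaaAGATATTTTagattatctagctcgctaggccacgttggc
EPR1: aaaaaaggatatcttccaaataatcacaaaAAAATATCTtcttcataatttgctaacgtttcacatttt
The windows end upstream of the gene starts of FKF1 (chr1:25508423-25508491, plus strand), PRR5 (chr5:8358695-8358763, minus strand), TOC1 (chr5:24674782-24674850, plus strand), PCL1 (chr3:17182959-17183027, plus strand), BOA (chr5:24003815-24003883, plus strand) and EPR1 (chr1:6308255-6308323, minus strand). The element begins 186, 187, 151, 53, 43 and 50 bases before the start of these genes, in the same order. FKF1, PRR5, TOC1, PCL1 and BOA belong to the afternoon and evening list and were higher in gPLT2C212S, whereas EPR1, a morning-list gene also known as RVE7, was lower. No other annotated gene overlaps these stretches.

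Afternoon and evening genes were mostly higher in gPLT2C212S. Of 12 tested members, 8 were higher and 1 was lower (median log2 fold change 0.95, against 0.00216 over all genes), and total-count scaling left 6 higher and 1 lower. FKF1, a light-sensing F-box protein of the late afternoon, had 23.4, 22.01, 20.4, 18.6 and 20 CPM in gPLT2C212S, against 1.28, 1.99, 2.61, 0.590 and 0.941 CPM in plt2. ELF4, part of the evening complex, had 18.02, 25.6, 18.18, 21.2 and 21.5 CPM in gPLT2C212S, against 2.78, 0.745, 1.16, 3.83 and 3.06 CPM in plt2. JMJD5, a JmjC-type oxygenase linked to clock pace, had 17.7, 20.8, 12.2, 12.3 and 18.18 CPM in gPLT2C212S, against 1.07, 0.745, 3.49, 0.884 and 0.941 CPM in plt2. The groups stood far apart in each of these genes, and plt2 values were only a few CPM (log2 fold changes 3.81, 3.16 and 3.54, adjusted p 2.17e-07, 1.80e-06 and 3.73e-06).

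PRR5, a repressor of CCA1 and LHY, had 27.8, 30.03, 25.7, 25.2 and 29.1 CPM in gPLT2C212S, against 5.35, 3.73, 4.65, 5.89 and 2.12 CPM in plt2 (log2 fold change 2.68, SE 0.21, adjusted p 6.31e-07). TOC1, another pseudo-response regulator, had 44.6, 60.7, 51.1, 53.2 and 59.4 CPM in gPLT2C212S, against 21.2, 29.3, 22.4, 23.9 and 21.9 CPM in plt2 (log2 fold change 1.19, SE 0.14, adjusted p 1.51e-05). Both were higher in every gPLT2C212S library than in any plt2 library. Smaller increases were called for BOA (1.04), PCL1 (0.86) and GI (0.71). TCP11, which the clock list holds under the name CHE and which is known to act on the CCA1 promoter, was the member that fell (4.90 ± 1.97 CPM in gPLT2C212S and 17.9 ± 5.30 CPM in plt2, log2 fold change -1.85, adjusted p 0.000165). ELF3 (0.36, adjusted p 0.0561), ZTL (0.33) and LKP2 (0.09) were not called, and PRR3 was too low to test.

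Morning genes were lower. Of 13 tested members, 9 were lower and 0 higher (median log2 fold change -1.60). LHY had 1.26, 0.595, 0.498, 0.286 and 0.303 CPM in gPLT2C212S, against 22.7, 14.4, 9.59, 13.8 and 23.1 CPM in plt2. CCA1 had 0, 0.892, 0.996, 0.572 and 0 CPM in gPLT2C212S, against 12.8, 8.20, 11.6, 6.48 and 15.8 CPM in plt2. In gPLT2C212S both were close to the detection limit, and in plt2 both were measured in every library (log2 fold changes -4.78 and -4.32, SE 0.39 and 0.47, adjusted p 8.03e-07 and 9.47e-06).

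Several morning-list loci without a RefSeq symbol followed the same direction. AT3G54500 had 13.6, 9.81, 16.7, 16.3 and 10.9 CPM in gPLT2C212S, against 55.3, 57.9, 60.7, 69.8 and 60.7 CPM in plt2 (log2 fold change -2.16, SE 0.15, adjusted p 2.20e-07), and AT3G12320 had 0.632, 2.08, 0.996, 0.572 and 1.82 CPM in gPLT2C212S, against 10.5, 10.7, 10.8, 6.78 and 8.71 CPM in plt2 (log2 fold change -2.93, SE 0.33, adjusted p 1.43e-05). Neither had overlapping groups. AT5G06980 (-2.61) and AT5G64170 (-1.603) were lower as well, as were the REVEILLE family genes RVE1 (-1.74), EPR1 (-1.07) and LCL1 (-0.70). PRR9 (-1.103, adjusted p 0.0683), RVE2 (-0.43), AT5G52660 (-0.26) and PRR7 (0.38) were not called. Neither tested CDF factor, CDF2 (-0.18) or CDF3 (-0.26), was called; these genes encode DOF proteins that FKF1 is known to target for degradation.

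The summed level of the 13 evening-list genes was 328 ± 17.1 CPM in gPLT2C212S and 170 ± 12.9 CPM in plt2. For the 14 morning-list genes it was 105 ± 11.9 CPM in gPLT2C212S and 256 ± 15.4 CPM in plt2 (SD, n = 5 each). Both sums separated the groups without overlap, and clock RNA follows the hour of harvest, which is not given, so a difference in that hour and a difference between genotypes cannot be told apart.

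**Figure D2:**
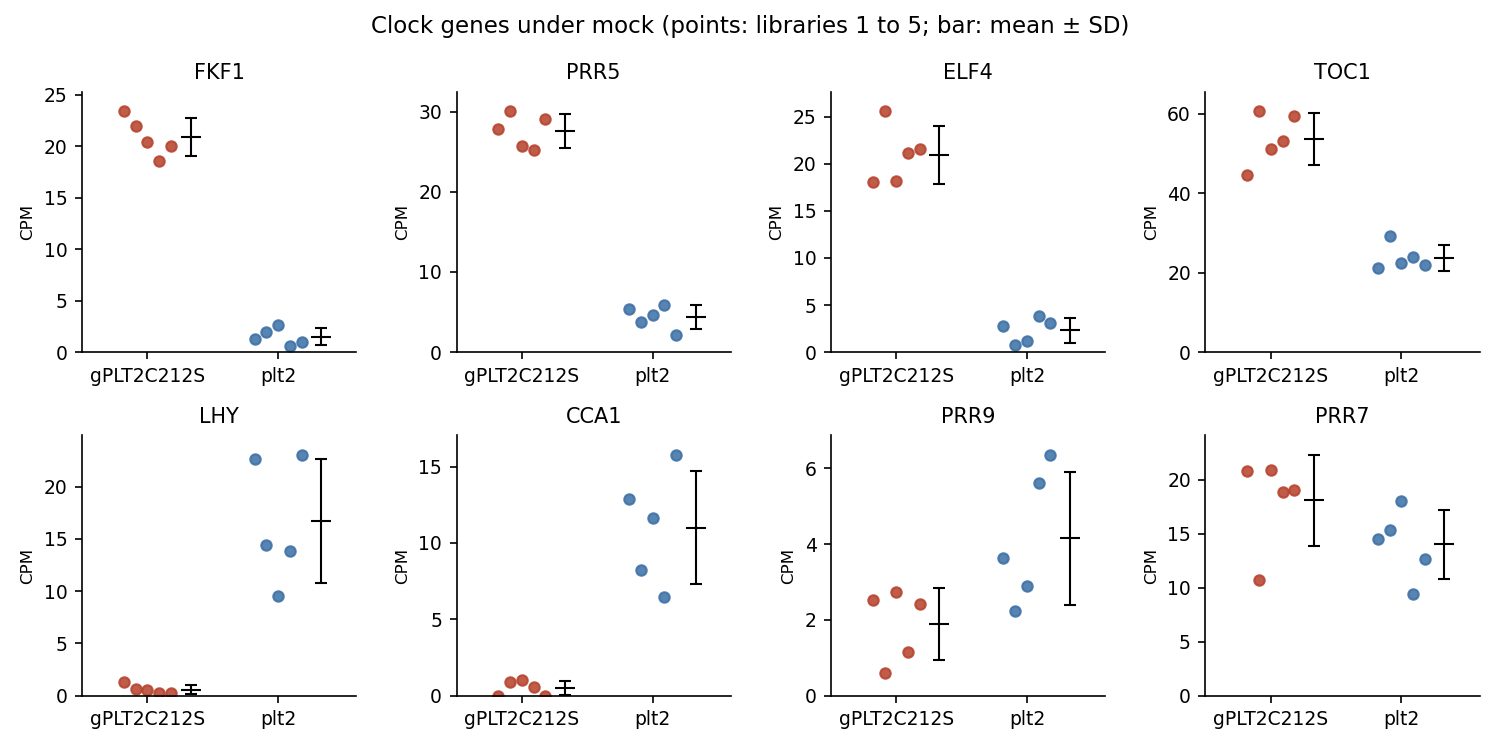
Levels of evening-list genes (FKF1, PRR5, ELF4, TOC1) and morning-list genes (LHY, CCA1, PRR9, PRR7) under mock, as CPM (y axis, linear). Each point is a library of gPLT2C212S (left) or plt2 (right), with mean and SD of 5 libraries; FKF1 averages 20.9 ± 1.86 CPM in gPLT2C212S and 1.48 ± 0.816 in plt2, LHY 0.589 ± 0.400 CPM in gPLT2C212S and 16.7 ± 5.93 in plt2, and PRR7 overlaps.

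The evening element was present in 7.49% of the promoter windows of the higher genes (79 of 1055, from 250 bases before to 50 after the gene start, both strands), in 1.95% of the lower genes' windows (37 of 1895) and in 2.9% of those of all tested genes (459 of 15851). Among genes at least 2-fold higher the share was 11.9% (33 of 277). The evening list itself held it in 6 of 13 windows. The related CCA1-binding site AAAAATCT, a different string that neither contains the evening element nor lies within it, stood in 8.53% of the higher, 7.49% of the lower and 8.23% of all windows. A G-box, CACGTG, stood in 10 of 14 morning-list windows and in 8.88% of all windows. The telobox AAACCCTA was found in 6.35% of the higher, 2.16% of the lower and 6.27% of all windows. These matches are descriptions of letters, and binding was not measured.

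Water channel genes were lower as a group in gPLT2C212S. Aquaporins conduct water across the plasma membrane (PIP) and the vacuolar membrane (TIP) and are most active where root cells elongate. Of 19 tested members, 15 were lower and 0 higher (median log2 fold change -1.76). PIP1B had 192, 147, 159, 166 and 137 CPM in gPLT2C212S, against 708, 566, 800.5, 741 and 394 CPM in plt2 (log2 fold change -1.99, SE 0.18, adjusted p 1.76e-06). PIP1;4 had 20.6, 14.9, 17.44, 13.4 and 13.6 CPM in gPLT2C212S, against 119, 97.6, 129, 118 and 51.1 CPM in plt2 (log2 fold change -2.67, SE 0.22, adjusted p 8.60e-07). TIP4;1 had 33.5, 36.0, 39.4, 40.0 and 39.1 CPM in gPLT2C212S, against 145, 109, 159, 190.1 and 103 CPM in plt2 (log2 fold change -1.90, SE 0.16, adjusted p 8.60e-07). In each of them, every gPLT2C212S library was below every plt2 library, with replicate 5 the lowest of plt2.

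The 2 steepest differences of the tested aquaporins were in genes of low level. PIP2E had 1.58, 0.297, 0.996, 0.858 and 0 CPM in gPLT2C212S, against 18.6, 14.7, 23.8, 23.0 and 4.24 CPM in plt2 (log2 fold change -4.41). PIP1;5 had 1.58, 0, 0.498, 0.286 and 0.303 CPM in gPLT2C212S, against 10.9, 11.9, 17.1, 13.3 and 4.94 CPM in plt2 (log2 fold change -4.38). The gPLT2C212S values were at most 5 counts per library for PIP2E and PIP1;5. PIP2;8 (-0.08), NIP5;1 (0.00), SIP2;1 (-0.01) and TIP2 (-0.49) were the tested members without a call. Summed over the family, aquaporins had 1037 ± 137 CPM in gPLT2C212S and 2897 ± 861 CPM in plt2.

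Genes that loosen and build the cell wall were also lower. XTH enzymes cut and rejoin xyloglucan chains. XTH17 had 3.79, 1.49, 1.49, 0.858 and 1.51 CPM in gPLT2C212S, against 69.8, 45.5, 63.3, 75.8 and 24.5 CPM in plt2 (log2 fold change -4.92, SE 0.36, adjusted p 2.99e-07). XTH30 had 0.949, 2.68, 1.49, 0.858 and 0.606 CPM in gPLT2C212S, against 30.4, 19.9, 43.3, 34.8 and 3.77 CPM in plt2 (log2 fold change -4.26, SE 0.56, adjusted p 5.28e-05). XTH18 had 31.6, 20.8, 18.18, 17.2 and 18.8 CPM in gPLT2C212S, against 115, 127, 179.8, 172 and 31.8 CPM in plt2 (log2 fold change -2.54, SE 0.34, adjusted p 6.99e-05). In each, replicate 5 was the lowest plt2 library, yet it still lay above all gPLT2C212S libraries. Over the XTH family 8 of 15 tested members were lower and 2 were higher, XTH5 (0.71) and XTH28 (0.75), whereas total-count scaling gave 9 lower and 0 higher. XTH17, XTH18 and XTH19 are close relatives, and how reads shared between such genes were counted is not given in the sources used here.

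Expansins loosen walls without cutting them. EXLA2 had 1.58, 3.57, 1.49, 2.29 and 1.82 CPM in gPLT2C212S, against 23.1, 14.2, 23.2, 24.5 and 18.6 CPM in plt2 (log2 fold change -3.24, SE 0.26, adjusted p 6.31e-07). EXPA17, which is expressed in roots, had 38.6, 28.6, 33.6, 20.02 and 21.8 CPM in gPLT2C212S, against 188, 158, 199, 199.5 and 82.8 CPM in plt2 (log2 fold change -2.52, SE 0.23, adjusted p 2.35e-06). EXPB1 (36.9 ± 10.2 CPM in gPLT2C212S and 117 ± 31.1 CPM in plt2) and EXLA1 (6.68 ± 0.906 CPM in gPLT2C212S and 26.3 ± 9.56 CPM in plt2) were lower too. None of these overlapped between groups. Of 15 tested expansins 8 were lower and 1, EXPA20, was higher (1.23).

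Primary-wall cellulose synthesis genes showed smaller but even shifts. Of 10 tested, 9 were lower and 0 higher (median log2 fold change -0.77); the exception was CESA2, which stayed under the threshold (-0.26, adjusted p 0.144). CESA3, listed as CEV1, had 221, 246, 253, 224 and 212 CPM in gPLT2C212S, against 429, 308, 514, 429.7 and 359 CPM in plt2 (log2 fold change -0.81, SE 0.13, adjusted p 0.000477). CSI1, which links the synthase to microtubules, had 188, 198, 192, 191 and 157 CPM in gPLT2C212S, against 343, 265, 376, 355 and 294 CPM in plt2 (log2 fold change -0.81, SE 0.12, adjusted p 0.000225). POM1, a chitinase-like protein of cellulose assembly, had 98.0, 104, 102, 99.8 and 82.7 CPM in gPLT2C212S, against 200, 164, 258, 204 and 155 CPM in plt2 (log2 fold change -1.0, SE 0.14, adjusted p 9.58e-05), and CESA5 averaged 22.7 ± 3.39 CPM in gPLT2C212S and 48.6 ± 10.3 CPM in plt2 (log2 fold change -1.09, SE 0.16, adjusted p 0.000169). No library of gPLT2C212S reached the plt2 range for any of these genes.

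Peroxidases were lower where they were called, while the other enzymes of reactive oxygen differed gene by gene. Class III peroxidases act in the wall, where they can stiffen or loosen it through reactive oxygen. Of 13 tested, 10 were lower and 0 higher (median log2 fold change -2.11). AT2G18980 had 204, 147, 157, 121 and 122 CPM in gPLT2C212S, against 741, 528, 870.5, 683 and 463 CPM in plt2 (log2 fold change -2.11, SE 0.19, adjusted p 1.80e-06). AT4G37520 had 19.9, 14.0, 11.2, 12.3 and 13.3 CPM in gPLT2C212S, against 66.8, 58.4, 84.5, 71.9 and 40.7 CPM in plt2 (log2 fold change -2.18, SE 0.20, adjusted p 2.59e-06). AT4G11290 had 36.7, 40.7, 40.9, 31.2 and 33.6 CPM in gPLT2C212S, against 127, 84.5, 129.8, 133 and 78.6 CPM in plt2 (log2 fold change -1.58, SE 0.16, adjusted p 5.67e-06). Each of these peroxidase superfamily genes was lower without overlap, as was AT4G16270 (2.96 ± 1.74 CPM in gPLT2C212S and 24.4 ± 6.88 CPM in plt2, log2 fold change -3.0). The 29 listed peroxidases summed to 694 ± 124 CPM in gPLT2C212S and 1940 ± 488 CPM in plt2.

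NADPH oxidases make superoxide outside the cell, superoxide dismutases turn superoxide into hydrogen peroxide, and catalases break down hydrogen peroxide. RHD2, the NADPH oxidase of root hairs, had 13.3, 11.6, 12.0, 12.3 and 11.8 CPM in gPLT2C212S, against 63.6, 61.1, 100.5, 86.7 and 44.7 CPM in plt2 (log2 fold change -2.53, SE 0.20, adjusted p 6.31e-07). RBOH F had 26.9, 16.1, 24.2, 17.2 and 15.5 CPM in gPLT2C212S, against 47.3, 33.03, 49.96, 56.9 and 45.4 CPM in plt2 (log2 fold change -1.21, SE 0.18, adjusted p 0.000202). CSD1, the cytosolic copper/zinc superoxide dismutase, had 52.8, 52.0, 44.8, 30.03 and 31.8 CPM in gPLT2C212S, against 89.5, 87.4, 137, 98.2 and 101 CPM in plt2 (log2 fold change -1.26, SE 0.18, adjusted p 0.000101). These were lower without overlap, whereas the catalase gene CAT1 was higher, with 16.4, 28.2, 23.7, 23.7 and 27.0 CPM in gPLT2C212S, against 14.1, 10.4, 10.5, 8.84 and 8.001 CPM in plt2 (log2 fold change 1.20, SE 0.19, adjusted p 0.000266). UPB1, a bHLH repressor of root peroxidases, was lower (4.17 ± 1.91 CPM in gPLT2C212S and 14.7 ± 7.23 CPM in plt2, log2 fold change -1.78, adjusted p 0.00836), while CAT2 (0.45) and FSD2 (0.77) were higher. The list of 15 tested enzymes thus had 3 higher and 4 lower members, and 1 higher and 4 lower with total-count scaling.

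**Figure D3:**
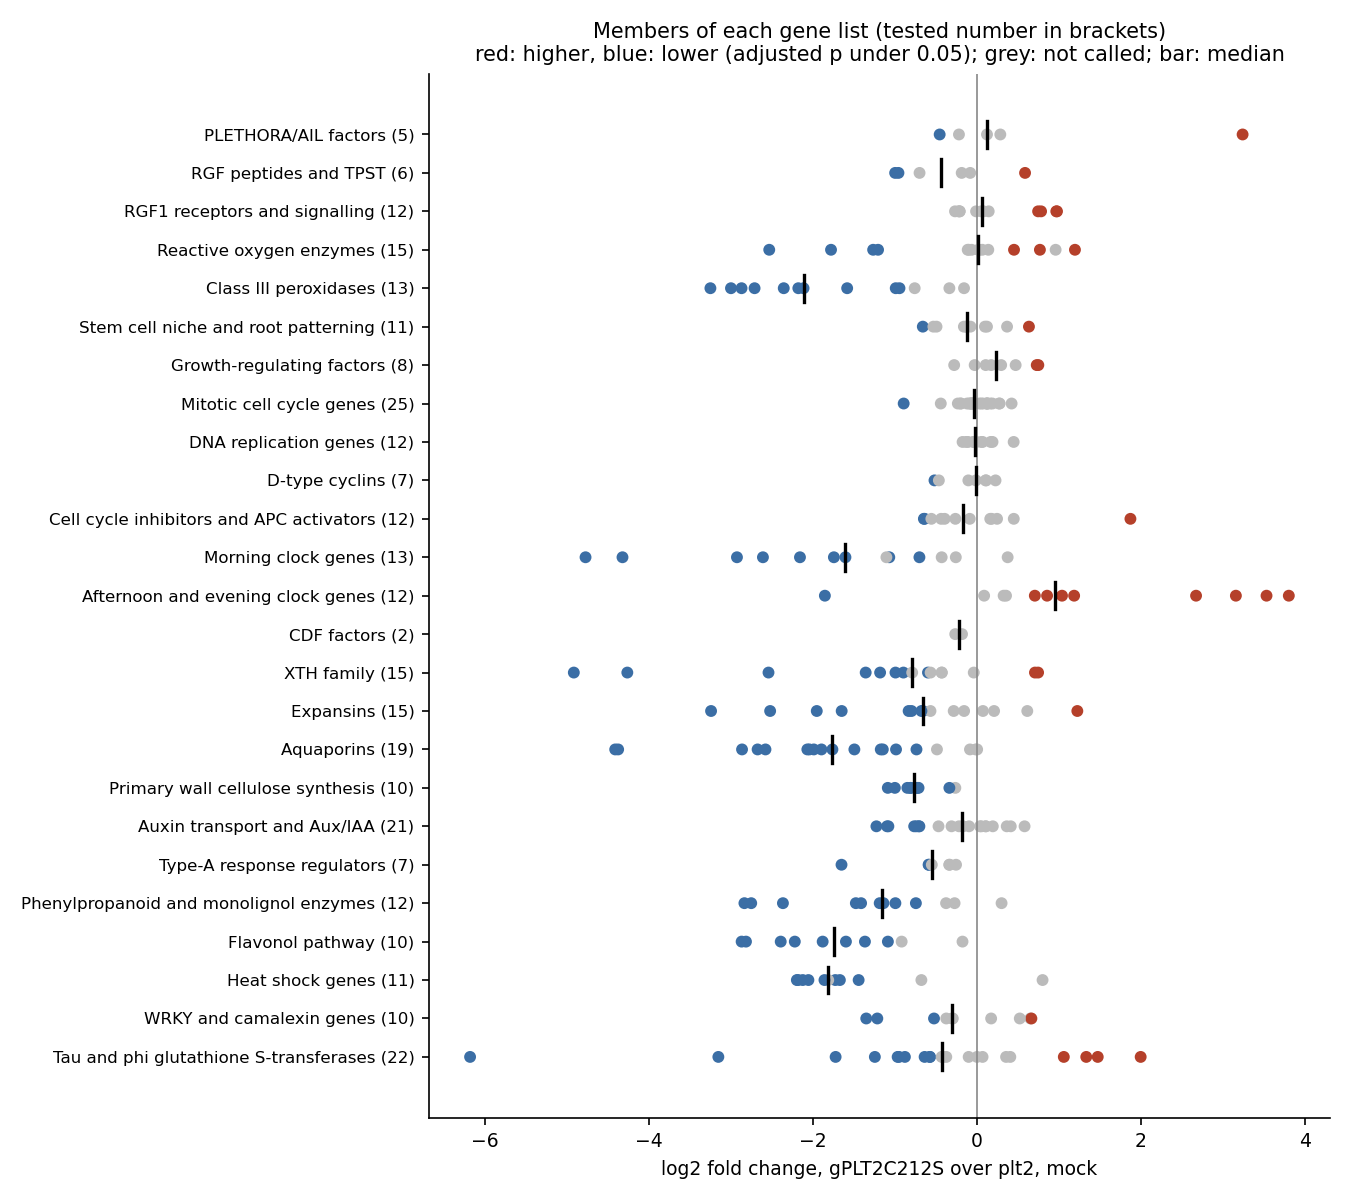
Log2 fold change, gPLT2C212S over plt2 under mock (x axis), of every tested member of each gene list (y axis). Red points were called higher, blue points called lower and grey points were not called, and the black bar is the list's median; aquaporins (15 of 19 lower), primary-wall cellulose genes (9 of 10 lower) and peroxidases (10 of 13 lower) lie left of zero, evening clock genes (8 of 12 higher, 6 with total-count scaling) right of it and DNA replication genes (0 of 12 called) around it.

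Phenylpropanoid genes, which feed lignin and flavonols, were lower. Of 12 tested phenylpropanoid and monolignol genes 9 were lower and 0 higher (median log2 fold change -1.16). C4H, the second enzyme of the pathway, had 60.4, 41.3, 50.1, 47.5 and 50.9 CPM in gPLT2C212S, against 148, 104, 130.4, 150 and 171 CPM in plt2 (log2 fold change -1.48, SE 0.14, adjusted p 3.42e-06). PAL1, the entry enzyme, had 11.4, 3.57, 22.9, 12.6 and 6.06 CPM in gPLT2C212S, against 83.7, 35.8, 57.2, 115 and 123 CPM in plt2 (log2 fold change -2.84, SE 0.38, adjusted p 6.25e-05). CCoAOMT1 (47.3 ± 9.44 CPM in gPLT2C212S and 127 ± 15.7 CPM in plt2) and CAD5 (3.09 ± 0.457 CPM in gPLT2C212S and 16.3 ± 5.90 CPM in plt2), enzymes of monolignol synthesis, were lower too. The groups did not overlap for any of these, and 4CL2 (-0.27), HCT (0.30) and CCR1 (-0.38) were not called.

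The flavonol branch showed the same direction in 8 of 10 tested members, with 0 higher (median log2 fold change -1.74). TT4, the chalcone synthase, had 136, 91.3, 186, 131 and 81.8 CPM in gPLT2C212S, against 409, 243, 415, 439 and 404 CPM in plt2 (log2 fold change -1.597, SE 0.20, adjusted p 4.11e-05). F3H had 54.1, 38.7, 62.0, 50.05 and 45.5 CPM in gPLT2C212S, against 276, 132, 156, 246 and 369.5 CPM in plt2 (log2 fold change -2.22, SE 0.23, adjusted p 6.32e-06). FLS1, the flavonol synthase, had 25.0, 20.22, 33.6, 27.5 and 19.4 CPM in gPLT2C212S, against 146, 65.6, 108, 146 and 203 CPM in plt2 (log2 fold change -2.39, SE 0.24, adjusted p 4.29e-06). Every plt2 library exceeded every gPLT2C212S library in these genes, with replicate 2 the lowest of plt2. MYB12, a known activator of this branch, was not called (13.6 ± 3.99 CPM in gPLT2C212S and 15.5 ± 4.24 CPM in plt2, log2 fold change -0.17), nor was UGT78D1 (-0.92). 4CL3, a 4-coumarate ligase gene, averaged 5.21 ± 1.80 CPM in gPLT2C212S and 39.0 ± 22.7 CPM in plt2 (log2 fold change -2.87, SE 0.36, adjusted p 3.92e-05).

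Heat shock genes were lower, but the difference leaned on a single library. HSP90.1, a cytosolic chaperone, had 28.5, 29.1, 15.2, 40.6 and 37.6 CPM in gPLT2C212S, against 418, 99.1, 68.3, 66.9 and 41.4 CPM in plt2 (log2 fold change -2.20, SE 0.50, adjusted p 0.00540). HSP70 had 15.8, 15.8, 7.47, 16.9 and 13.0 CPM in gPLT2C212S, against 167, 34.3, 41.5, 29.5 and 13.9 CPM in plt2 (log2 fold change -2.06, SE 0.50, adjusted p 0.00835). AT5G51440, an HSP20-like gene, had 13.9, 13.7, 8.47, 9.72 and 10.3 CPM in gPLT2C212S, against 149.9, 26.8, 22.1, 28.9 and 16.0 CPM in plt2 (log2 fold change -2.12, SE 0.51, adjusted p 0.00766). AT5G48570, an FKBP-type isomerase gene, had 28.8, 32.1, 26.4, 50.6 and 38.2 CPM in gPLT2C212S, against 421, 79.2, 43.9, 52.8 and 45.2 CPM in plt2 (log2 fold change -1.86, SE 0.53, adjusted p 0.0199). Replicate 1 of plt2 was the highest library in each of them, and the remaining plt2 libraries lay much closer to gPLT2C212S.

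Without that library the log2 fold change of HSP90.1 was -1.18 (adjusted p 0.00479), the log2 fold change of AT5G51440 was -1.05 (adjusted p 0.00335), the log2 fold change of HSP70 was -1.10 (adjusted p 0.0139) and the log2 fold change of AT5G48570 was -0.64 (adjusted p 0.0472). Called members of the list numbered 8 of 11 with all libraries (median log2 fold change -1.81, 0 higher) and 4 without replicate 1 of plt2 (median -0.64). The number was 3 to 5 when gPLT2C212S replicate 2, 3, 4 or 5 was left out, and 0 with the mitochondrial share as a covariate. HSFA2, a heat shock factor, had 6.96, 3.57, 3.49, 4.86 and 8.18 CPM in gPLT2C212S, against 86.7, 9.69, 6.97, 7.66 and 9.41 CPM in plt2, and only replicate 1 of plt2 stood apart. Hsp70b was not called (0.80). The heat shock element GAANNTTC was found in 9 of 20 promoter windows of the list, against 11% of all windows.

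**Figure D4:**
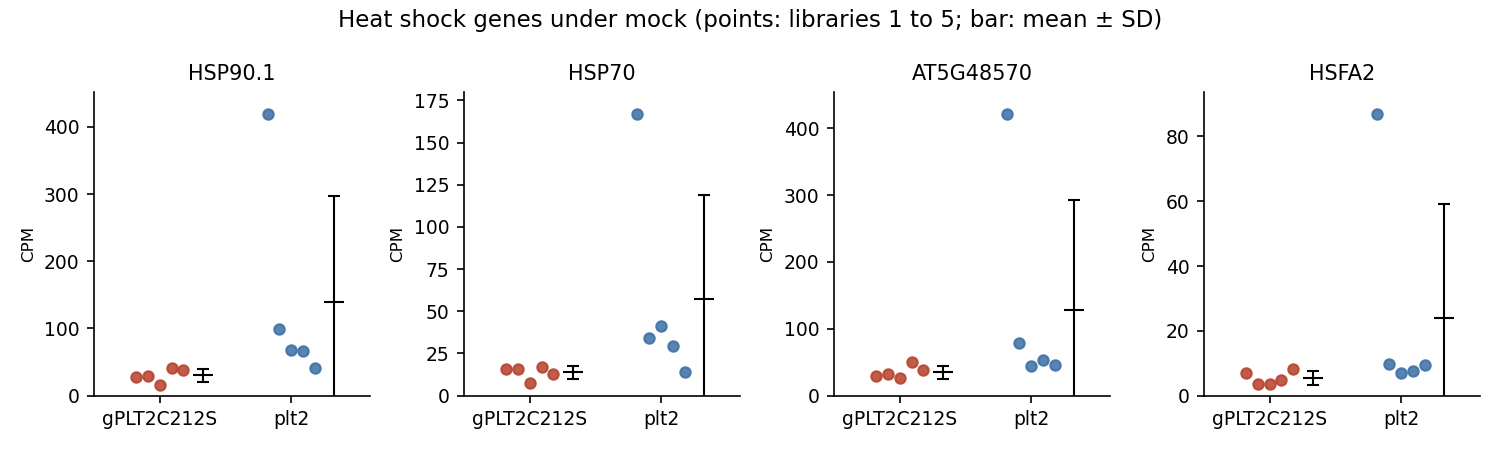
Levels of 4 heat shock genes (HSP90.1, HSP70, AT5G48570, HSFA2) under mock, as CPM (y axis, linear). Each point is a library of gPLT2C212S (left) or plt2 (right), with mean and SD of 5 libraries; a single plt2 library, replicate 1, holds the highest value in all 4 panels (its group's SD bars run below 0 and are cut there), at 418.5 CPM for HSP90.1 and 420.6 CPM for AT5G48570.

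Cell cycle transcripts hardly differed, although the sections come from dividing tissue. Of 25 mitotic genes tested, 0 were higher and 1 was lower, and the median log2 fold change was -0.03. The lower one, CYCA2;1, had 2.85, 3.87, 3.49, 4.29 and 5.76 CPM in gPLT2C212S, against 6.85, 8.45, 3.49, 8.84 and 10.12 CPM in plt2 (log2 fold change -0.89, SE 0.29, adjusted p 0.0433), with overlapping groups. Its call was lost in 10 of the alternative analyses, among them the removal of any plt2 replicate but 3, where the log2 fold change of CYCA2;1 lay between -0.92 and -0.77. Of the B-type cyclins that mark mitosis, CYCB1;1 had 15.2, 19.9, 9.71, 12.6 and 21.8 CPM in gPLT2C212S, against 16.5, 23.4, 14.2, 16.5 and 22.4 CPM in plt2 and did not differ beyond the spread (log2 fold change -0.23, adjusted p 0.509). Of 12 DNA replication genes 0 were called by edgeR (0 also at an unadjusted p under 0.05, by DESeq2 and by limma-voom), and their log2 fold changes ran from -0.17 to 0.45. Summed over the mitotic list the level was 653 ± 41.2 CPM in gPLT2C212S and 655 ± 75.6 CPM in plt2.

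Among cell cycle inhibitors and APC activators 3 of 12 tested genes were called (25%), against 18.7% of all genes. LGO and SIM, inhibitors of cyclin-dependent kinases that promote endoreduplication, were lower: LGO had 85.1, 73.5, 85.9, 94.1 and 83.0 CPM in gPLT2C212S, against 144, 106, 120.5, 136 and 155 CPM in plt2 (log2 fold change -0.64, SE 0.12, adjusted p 0.00126). SIM had 87.6, 93.7, 109.6, 123 and 146 CPM in gPLT2C212S, against 217, 146, 148, 209 and 161 CPM in plt2 (log2 fold change -0.65, SE 0.15, adjusted p 0.00692). ICK3, the inhibitor also known as KRP5, was higher, with 13.3, 15.2, 12.0, 14.3 and 13.3 CPM in gPLT2C212S, against 5.78, 4.22, 0.871, 2.65 and 4.47 CPM in plt2 (log2 fold change 1.88, SE 0.29, adjusted p 0.000282). None of these overlapped between groups, and the list had 1 higher and 2 lower of 12 tested. CYCD3;1, a G1 cyclin, was the called member of 7 tested D-type cyclins (19.4 ± 2.06 CPM in gPLT2C212S and 28.0 ± 5.999 CPM in plt2, log2 fold change -0.52, SE 0.16, adjusted p 0.0344), and its call was lost in 10 alternatives, including the removal of plt2 replicate 2, 4 or 5.

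Growth-regulating factors and their partner AN3 (GIF1) promote proliferation. AN3 had 121, 134, 152, 135 and 174 CPM in gPLT2C212S, against 96.8, 89.4, 56.6, 82.2 and 109 CPM in plt2 (log2 fold change 0.73, SE 0.15, adjusted p 0.00274), without overlap. GRF1 had 50.3, 78.2, 52.3, 68.9 and 84.6 CPM in gPLT2C212S, against 36.8, 42.7, 32.2, 33.3 and 54.1 CPM in plt2 (log2 fold change 0.75, SE 0.17, adjusted p 0.00555), with gPLT2C212S replicates 1 and 3 just below the highest plt2 library. With the default scaling 2 of 8 tested were higher and 0 lower, but total-count scaling gave 0 higher and 1 lower.

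Among hormone genes, auxin and cytokinin response genes were lower where they were called. AUX1, the auxin influx carrier, had 70.2, 77.3, 81.0, 71.5 and 66.1 CPM in gPLT2C212S, against 112, 85.7, 140.3, 128 and 134 CPM in plt2 (log2 fold change -0.70, SE 0.13, adjusted p 0.00126). IAA16, an auxin response repressor, had 106, 77.3, 81.7, 89.0 and 71.2 CPM in gPLT2C212S, against 218, 174, 246, 216 and 150.1 CPM in plt2 (log2 fold change -1.23, SE 0.15, adjusted p 3.02e-05). IAA28 (13.8 ± 3.32 CPM in gPLT2C212S and 29.4 ± 3.88 CPM in plt2) and IAA7 (73.0 ± 10.5 CPM in gPLT2C212S and 125 ± 36.0 CPM in plt2) were lower as well, IAA7 with overlap. The efflux carriers EIR1 (0.11), PIN3 (-0.09), PIN4 (-0.31) and PIN7 (0.37) were not called. Of 21 tested auxin genes 7 were lower and 0 higher, and 4 were called when plt2 replicate 4 or gPLT2C212S replicate 3, 4 or 5 was left out.

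Type-A response regulators, early targets and brakes of cytokinin signalling, had 3 lower and 0 higher of 7 tested. ARR3 had 17.39, 8.62, 9.22, 6.29 and 8.18 CPM in gPLT2C212S, against 30.6, 30.3, 37.5, 36.8 and 22.1 CPM in plt2 (log2 fold change -1.65, SE 0.24, adjusted p 0.000121). RR5 (41.4 ± 5.59 CPM in gPLT2C212S and 62.7 ± 5.34 CPM in plt2, log2 fold change -0.59) and ARR4 (33.4 ± 4.53 CPM in gPLT2C212S and 50.5 ± 6.001 CPM in plt2, log2 fold change -0.58) fell less. The groups did not overlap for any of these.

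Glutathione S-transferases, which conjugate and detoxify small molecules, moved in both directions, with 4 higher and 10 lower of 22 tested. The counts were 4 and 11 with total-count scaling, and 6 and 9 with RLE factors, another scaling, in the same edgeR test. GSTF9, an abundant member, had 409.5, 543, 513, 479 and 544 CPM in gPLT2C212S, against 186, 190.0, 207, 169 and 239 CPM in plt2 (log2 fold change 1.336, SE 0.13, adjusted p 2.71e-06). GSTU5 had 1.26, 1.19, 1.74, 2.57 and 1.51 CPM in gPLT2C212S, against 22.3, 13.4, 20.9, 15.3 and 4.24 CPM in plt2 (log2 fold change -3.15, SE 0.41, adjusted p 5.27e-05). GSTU24 had 54.4, 37.5, 36.4, 47.8 and 40.3 CPM in gPLT2C212S, against 101, 81.5, 125, 123 and 87.1 CPM in plt2 (log2 fold change -1.24, SE 0.16, adjusted p 3.45e-05). GSTF9 was higher, GSTU5 and GSTU24 were lower, all without overlap. GSTU11 had 1 count over the gPLT2C212S libraries and 127 over the plt2 libraries, a plt2 over gPLT2C212S ratio of 111.3 (95% counting interval 19.6 to 4431). GSTU20 (2.0), GSTU9 (1.48) and ATGSTF13 (1.06) were the other higher members.

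Stress-linked WRKY and camalexin genes had 1 higher and 3 lower of 10 tested, and 0 and 4 with total-count scaling. WRKY33 had 15.2, 18.7, 21.9, 18.02 and 18.8 CPM in gPLT2C212S, against 24.2, 27.1, 25.6, 32.7 and 24.9 CPM in plt2 (log2 fold change -0.52, SE 0.14, adjusted p 0.0161), and CYP79B2, an enzyme at the entry to indole glucosinolates and camalexin, had 37.0, 49.4, 46.1, 41.8 and 52.4 CPM in gPLT2C212S, against 22.9, 22.9, 38.0, 27.1 and 33.2 CPM in plt2 (log2 fold change 0.67, SE 0.16, adjusted p 0.00688). WRKY33 was lower without overlap; CYP79B2 was higher with overlap. WRKY40 (-1.21, adjusted p 0.0289) and WRKY48 (-1.35, adjusted p 0.0332) overlapped, and their calls were lost in 8 and 9 alternatives, most of them removals of 1 library.

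Patterning genes of the stem cell niche and markers of other cell types had calls in some members. SHR (-0.12), SCR (0.10), JKD (-0.16) and SMB (0.12) were not called, and WOX5, the quiescent centre gene, had at most 5 counts in any of these libraries. MYB66, also known as WER, the non-hair fate regulator of the epidermis, had 74.3, 66.6, 76.0, 57.8 and 50.9 CPM in gPLT2C212S, against 43.0, 41.0, 36.9, 33.01 and 56.7 CPM in plt2 (log2 fold change 0.64, SE 0.16, adjusted p 0.00832), with 1 plt2 library inside the gPLT2C212S range. The root cap gene NAC015 had 106, 92.2, 89.9, 91.0 and 90.6 CPM in gPLT2C212S, against 110.5, 154, 219, 193 and 71.8 CPM in plt2 (log2 fold change -0.66, SE 0.22, adjusted p 0.0474); its call was lost in 11 alternatives. The list held 1 higher and 1 lower of 11 tested members, a share near that of all genes, and it held 0 and 3 with total-count scaling. Without plt2 replicate 5 it held 2 higher and 3 lower, without gPLT2C212S replicate 1 it held 1 higher and 2 lower, and without any other library except plt2 replicate 1 it held 1 higher and 0 lower.

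Some markers of mature tissue were near zero, while others of the same lists were measured. The Casparian strip genes CASP1, CASP2, CASP4 and CASP5, the root hair genes PRP1, EXPA7 and EXPA18 and the secondary wall gene IRX1 had at most 4 counts in any library of either group. The green tissue genes CAB2, LHCB2.1, RBCS1A and RBCS3B had at most 3. Summed marker levels were 23.3 to 36.9 CPM in gPLT2C212S and 29.6 to 60.8 CPM in plt2 for root hair cells, 9.96 to 14.9 CPM in gPLT2C212S and 14.4 to 21.4 CPM in plt2 for the endodermis, and 10.11 to 13.9 CPM in gPLT2C212S and 13.7 to 22.4 CPM in plt2 for xylem. Root cap sums were 203 to 233 CPM in gPLT2C212S and 177 to 436 CPM in plt2, and cortex sums 102 to 148 CPM in gPLT2C212S and 119 to 245 CPM in plt2. Phloem sums ran the other way, 28.5 to 32.9 CPM in gPLT2C212S and 21.6 to 26.6 CPM in plt2.

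Single called markers were GSO1 of the endodermis (4.33 ± 1.26 CPM in gPLT2C212S and 7.93 ± 2.09 CPM in plt2), SHV2 of root hairs (1.85 ± 0.964 CPM in gPLT2C212S and 5.64 ± 1.88 CPM in plt2), XCP2 of xylem (3.34 ± 1.77 CPM in gPLT2C212S and 7.77 ± 3.08 CPM in plt2) and, for cortex, AT1G62500, higher (14.6 ± 5.10 CPM in gPLT2C212S and 7.29 ± 1.88 CPM in plt2), beside AT1G09750, lower (112 ± 17.75 CPM in gPLT2C212S and 177 ± 49.5 CPM in plt2). The calls of GSO1 and XCP2 were lost in 6 and 8 alternatives and that of AT1G09750 in 3. Called were 0 of 3 tested phloem and 0 of 2 tested green markers, 1 of 4 for the root cap, 1 of 3 each for endodermis and root hairs, 1 of 2 for xylem and 2 of 2 for cortex. The part of tissue makeup in those lists was not tested, and in bulk RNA fewer cells of a type and less RNA per cell cannot be told apart.

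Several of the clearest differences lay outside these lists. ABF1, a bZIP factor of abscisic acid responses, had 99.6, 113, 103, 95.5 and 90.0 CPM in gPLT2C212S, against 13.3, 13.4, 9.88, 17.98 and 13.4 CPM in plt2 (log2 fold change 2.89, SE 0.15, adjusted p 5.55e-09). MLS, the malate synthase of the glyoxylate cycle, had 73.0, 83.0, 84.2, 82.1 and 79.4 CPM in gPLT2C212S, against 12.2, 16.4, 7.84, 12.4 and 7.29 CPM in plt2 (log2 fold change 2.84, SE 0.18, adjusted p 1.21e-07). IGMT5, an indole glucosinolate methyltransferase, had 62.0, 74.9, 70.7, 78.1 and 63.0 CPM in gPLT2C212S, against 17.1, 16.1, 19.5, 14.4 and 20.24 CPM in plt2 (log2 fold change 2.003, SE 0.13, adjusted p 1.24e-07). These were higher, with narrow spread in both groups and wide gaps between them.

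AT1G13930, annotated as oleosin-B3-like, had 56.0, 29.4, 36.1, 20.3 and 21.2 CPM in gPLT2C212S, against 5.57, 4.47, 6.39, 5.89 and 3.53 CPM in plt2 (log2 fold change 2.67, SE 0.29, adjusted p 8.77e-06), every gPLT2C212S library above every plt2 library. AT3G01345, an uncharacterised gene, had 7.59, 18.4, 9.46, 16.6 and 29.7 CPM in gPLT2C212S, against 0, 0.248, 0, 0 and 0.471 CPM in plt2. It had 280 counts over gPLT2C212S and 3 over plt2, a ratio of 106.5 (95% counting interval 36.1 to 519.5). The carboxypeptidase-like gene SCPL9 had 12.3, 11.6, 18.18, 21.4 and 10.3 CPM in gPLT2C212S, against 0, 0.497, 0, 0 and 0.471 CPM in plt2, with at most 2 counts in any plt2 library.

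On the lower side, NDB2, an alternative NADH dehydrogenase of mitochondria, had 51.9, 41.3, 47.6, 46.3 and 43.3 CPM in gPLT2C212S, against 136, 126, 154, 153 and 150.1 CPM in plt2 (log2 fold change -1.63, SE 0.11, adjusted p 2.14e-07). NPQ4, known from leaf photoprotection, had 0, 0.595, 0.498, 1.43 and 0 CPM in gPLT2C212S, against 8.99, 10.4, 12.2, 17.1 and 7.29 CPM in plt2 (log2 fold change -4.33). Genes of the bifunctional inhibitor/lipid-transfer family were among the lowest: AT4G22666 had 8.54, 3.27, 3.49, 0.858 and 1.51 CPM in gPLT2C212S, against 66.4, 59.6, 92.1, 97.0 and 12.2 CPM in plt2 (log2 fold change -4.20), and AT5G46900 had 12.7, 7.14, 2.24, 1.14 and 5.76 CPM in gPLT2C212S, against 138, 81.7, 131, 128 and 26.8 CPM in plt2 (log2 fold change -4.14). AT5G46890, its neighbour by locus code, followed with a log2 fold change of -3.98. None of these overlapped between groups, and replicate 5 of plt2 was the lowest plt2 library for all of them except NDB2. Reads shared by AT5G46890 and AT5G46900 may be split between them.

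The same genotypes were also compared under peptide, in libraries not used above, 5 a group but 6 of gPLT2C212S at 5 nM. At 0.3 nM RGF1, 7428 of 16019 genes were called (46.4%), and at 5 nM 7176 of 15943 (45.0%). Of 2928 genes called under mock and tested at 0.3 nM, 2033 were called in the same direction (69.4% of the mock genes and 28.0% of the 7255 called at 0.3 nM), 67 in the opposite one and 828 were not called. At 5 nM the numbers were 1931 of 2885 in the same direction (66.9%, and 27.8% of 6943), 120 opposite and 834 not called. In all 3 treatments 489 genes were higher and 1181 lower, of 15426 tested in each. Higher genes made up 47.8% of the calls at 0.3 nM and 48.5% at 5 nM, and 76.9% and 19.4% with total-count scaling.

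PLT2 kept its difference, with log2 fold changes of 2.79 at 0.3 nM and 3.72 at 5 nM. ABF1 (2.58 and 2.53), FKF1 (3.57 and 3.93) and LHY (-4.26 and -3.44) also stayed on the side they had under mock. Evening genes were 8 higher and 1 lower at 0.3 nM, and 9 higher and 0 lower at 5 nM. Morning genes were 1 higher and 6 lower of 12 at 0.3 nM, and 1 higher and 7 lower of 13 at 5 nM. Of all genes, 46.4% were called at 0.3 nM and 45.0% at 5 nM. The median log2 fold change of the morning list was -0.66 at 0.3 nM and -0.40 at 5 nM, against -1.60 under mock. For the evening list it was 0.85 and 1.085, against 0.95 under mock. In the tests of the interaction, which ask whether the difference under peptide departs from that under mock, neither PLT2 (-0.46 at 0.3 nM, adjusted p 0.362, and 0.49 at 5 nM, adjusted p 0.261) nor FKF1 (-0.25, adjusted p 0.830, and 0.14, adjusted p 0.904) was called.

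The interaction was called for 1856 of 16833 genes at 0.3 nM (11%) and for 2082 of 16778 at 5 nM (12.4%), with 43.9% and 51.6% of the calls positive. With total-count scaling 3988 and 1271 interactions were called, 92.8% and 46.7% of them positive. PLT1, barely lower under mock, had log2 fold changes of -2.58 at 0.3 nM and -1.999 at 5 nM (interaction -2.13, adjusted p 1.11e-05, and -1.53, adjusted p 3.67e-05). RGF2 (-3.67 and -3.98) and RGF3 (-3.36 and -3.33) were likewise further below plt2 under peptide, with called interactions at both doses. SIM (-1.92 and -3.30) and LGO (-1.96 and -3.97) followed the same course. The receptor kinase AT3G24240 did not (1.12 and 0.76, interaction adjusted p 0.654 and 0.399), whereas AT5G48940 was further above plt2 (1.52 and 1.38, interaction adjusted p 0.00167 and 0.00605).

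Some mock differences were smaller or turned round under peptide. PIP1;5, with -4.38 under mock, had -1.64 at 0.3 nM and 2.62 at 5 nM (interaction at 5 nM 7.002, adjusted p 4.18e-07). XTH30 had -4.26 under mock, -0.23 at 0.3 nM and 1.58 at 5 nM (interaction at 5 nM 5.85, adjusted p 9.32e-07). PIP1;5 and XTH30 were named for being among the 10 lowest genes under mock, and the interaction subtracts that mock difference. This choice by itself favours smaller differences under peptide and positive interactions for them. Aquaporins as a list were 0 higher and 13 lower of 20 at 0.3 nM, and 6 higher and 8 lower of 20 at 5 nM. Heat shock genes were 7 higher and 0 lower at both doses, of 14 and 11 tested. Their mock difference leaned on plt2 replicate 1, without which 4 members instead of 8 were called lower under mock. Of all genes, 46.4% were called at 0.3 nM and 45.0% at 5 nM, the background for the list counts in this and the next paragraph. Mitotic genes, of which 1 of 25 was called under mock, were 19 higher and 0 lower at 0.3 nM and 18 higher and 1 lower at 5 nM. The interaction was called positive for 11 of these 25 genes at each dose, against 11% and 12.4% of all genes with a called interaction. List counts under peptide were not repeated with total-count scaling, which changed the balance of directions over all genes.

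Primary-wall cellulose genes were 0 higher and 10 lower at each dose. Flavonol genes were 0 higher and 7 lower of 9 at 0.3 nM, and 0 higher and 8 lower of 9 at 5 nM. In both lists the direction was therefore that seen under mock at each peptide dose.

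**Figure D5:**
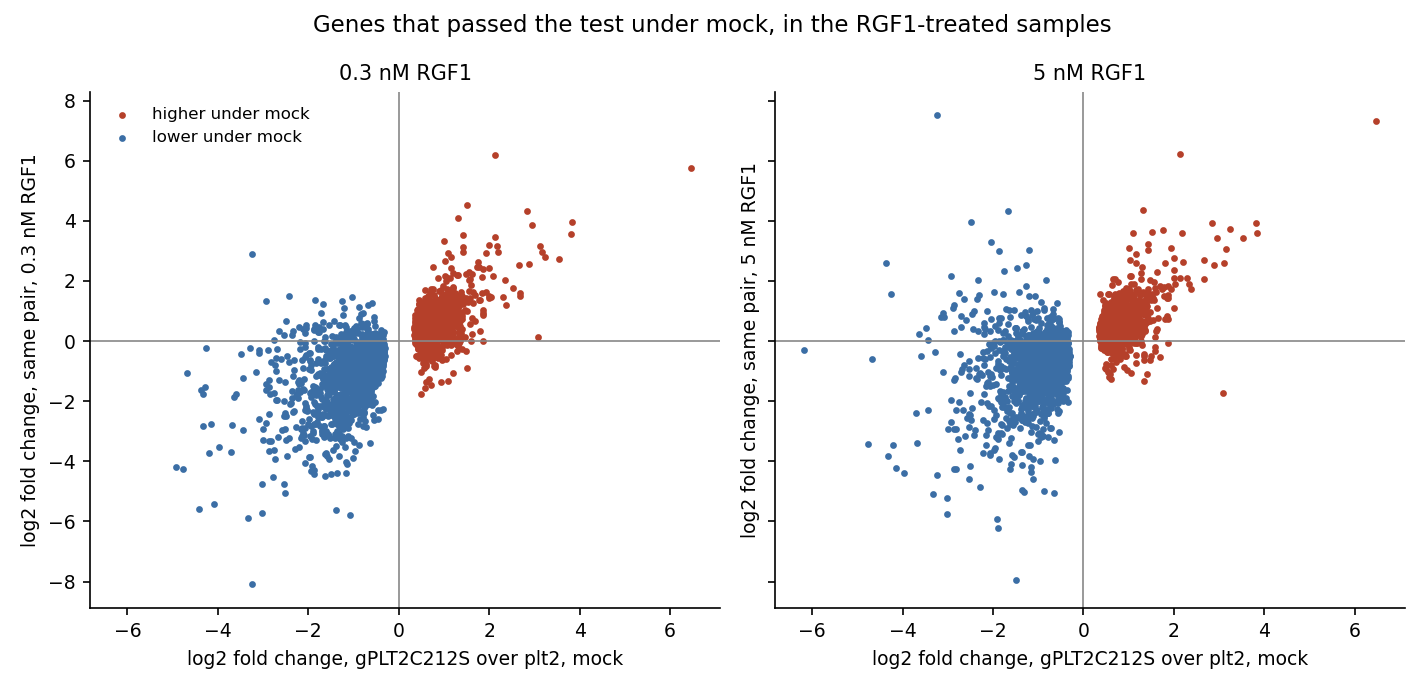
Log2 fold change, gPLT2C212S over plt2, of the genes called under mock: under mock (x axis) and at 0.3 nM or 5 nM RGF1 (y axis, one panel each). Each point is a gene; 2033 of 2928 genes at 0.3 nM and 1931 of 2885 at 5 nM were called in the same direction, and 67 and 120 in the opposite one.

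The transgene without the substitution was set against the same plt2 libraries, so its values are given beside those of gPLT2C212S and no agreement is counted. Under mock 405 of 15958 genes were called between gPLT2 and plt2 (2.54%), and 1394 of 15888 between gPLT2C212S and gPLT2 (8.77%), the second comparison sharing the gPLT2C212S libraries. Higher genes made up 57.3% and 25.4% of these calls, and 24.0% and 10.32% with total-count scaling. LHY averaged 0.589 ± 0.400 CPM in gPLT2C212S, 7.42 ± 0.871 in gPLT2 and 16.7 ± 5.93 in plt2. CCA1 averaged 0.492 ± 0.476 CPM in gPLT2C212S, 10.9 ± 2.08 in gPLT2 and 10.98 ± 3.70 in plt2. FKF1 stood at 20.9 ± 1.86 CPM in gPLT2C212S, 2.14 ± 1.21 in gPLT2 and 1.48 ± 0.816 in plt2. The gPLT2 level was near plt2 for CCA1 and FKF1 and intermediate for LHY. For CCA1 the log2 fold change was -4.30 against gPLT2 (adjusted p 7.84e-07) and for FKF1 it was 3.20 (adjusted p 1.14e-07).

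Other genes had like values in both transgenic lines. MLS averaged 80.3 ± 4.44 CPM in gPLT2C212S and 82.2 ± 14.9 CPM in gPLT2, with a log2 fold change between them of -0.03 (adjusted p 0.902). FLS1 averaged 25.1 ± 5.80 CPM in gPLT2C212S and 29.99 ± 9.59 CPM in gPLT2 (-0.23, adjusted p 0.491), and PAL1 11.3 ± 7.48 CPM in gPLT2C212S and 12.2 ± 2.997 CPM in gPLT2 (-0.07, adjusted p 0.916). These p-values do not show that the lines were equal. AT3G24240 averaged 163 ± 10.8 CPM in gPLT2C212S, 141 ± 27.4 in gPLT2 and 83.1 ± 11.9 in plt2.

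By list, the flavonol genes were 0 higher and 7 lower of 10 between gPLT2 and plt2, and 0 higher and 1 lower of 10 between gPLT2C212S and gPLT2. Morning clock genes were 0 higher and 1 lower of 14 between gPLT2 and plt2, and 0 higher and 9 lower of 13 between gPLT2C212S and gPLT2. Aquaporins were 0 higher and 4 lower of 20 between gPLT2 and plt2, and 0 higher and 14 lower of 18 between gPLT2C212S and gPLT2. Cellulose genes were 0 higher and 8 lower between gPLT2C212S and gPLT2, and CESA3 had a log2 fold change of -0.37 between gPLT2 and plt2 (adjusted p 0.183). Between the 2 transgenic lines, clock, water channel and cellulose genes thus differed in many members and flavonol genes in 1.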

How the data were processed

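RNA-seq libraries of root meristematic zones were assigned to genotype and treatment by their labels. The authors deposited whole-number counts for 36823 loci and FPKM values, scaled by gene length and depth, for 25722 loci; the FPKM table was used only to compare PLETHORA levels. The submitters' processing notes name HISAT2 2.1.0, Subread 2.0.3 with featureCounts, DESeq 1.34.0 and TAIR10, without role or order. Strand and multi-mapping settings are not given in the sources used here. RefSeq's TAIR10.1 table held 36632 of the loci and gave symbols, positions and promoter windows; its genome was read by coordinate. No sample column was left unmatched (0 columns).

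Counts were fitted in R 4.3.3 with edgeR 4.0.16 (filterByExpr with a minimum count of 10, TMM scaling, quasi-likelihood F test, Benjamini-Hochberg over all genes, threshold 0.05), using only the groups compared. SE is the log2 fold change divided by the square root of F. CPM levels leave out 14 loci and use TMM factors over all 47 libraries. All 20 replicate pairs differed beyond sampling noise (chi-square per degree of freedom 4.01 to 24.2). This spread does not show whether replicates were grown apart, and each library was counted as a sample. Library properties were compared by two-sided exact permutation tests. Alternatives used limma 3.58.1 and DESeq2 1.42.0. The procedure was tested on simulated counts in which as many genes were raised as lowered. The unequal balance of directions seen here was not simulated.

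Named were PLT2, all members of the PLETHORA, RGF and receptor lists, the 10 largest differences and 5 smallest adjusted p each way among called genes whose groups did not overlap (mean count 20 or more), and up to 4 called members of each other list; further list members are quoted to complete a list's count, and a few members are not reported here. Members and lists were chosen with earlier results of these data known. Intervals cover counting error only.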

Additional observations from a re-analysis of the deposited data

Results flagged for a closer look

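The 108 named genes were each tested in both groups for a library far from the other 4 of its group. There were 17 such cases, 9 in gPLT2C212S and 8 in plt2, and chance alone gives about 1 in 20 tests of a gene in a group. Cases that share a library are not independent. In gPLT2C212S replicate 1 the highest value stood apart for XTH17 (3.79 CPM), XTH18 (31.6 CPM), AT5G46890 (22.1 CPM), ARR3 (17.39 CPM) and NAC015 (106 CPM). In gPLT2C212S replicate 5, AT5G48940 stood apart on the high side (157 CPM), and POM1 (82.7 CPM) and CSI1 (157 CPM) on the low side. GSTU11 had its only gPLT2C212S count in replicate 4 (0.286 CPM).

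In plt2 replicate 1 the heat shock genes HSP90.1 (418.5 CPM), AT5G48570 (420.6 CPM), HSP70 (167 CPM) and AT5G51440 (149.9 CPM) were far above the rest of the group. In plt2 replicate 3, CSD1 (137 CPM) and JMJD5 (3.49 CPM) were high, in plt2 replicate 2 TT4 was low (243 CPM), and in plt2 replicate 5 WRKY48 was low (2.35 CPM).

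The gPLT2C212S minus plt2 difference departed from that under mock, in the interaction test, for 44 of 109 named genes at 0.3 nM RGF1 and 47 of 109 at 5 nM. Over all genes tested, the interaction was called for 11% at 0.3 nM and 12.4% at 5 nM. Many named genes were chosen by their mock difference, which enters the interaction, so the shares of named genes and of all genes are not comparable. At 0.3 nM the log2 interaction was positive (a difference further toward gPLT2C212S under peptide) for 20 genes: GSTU11 (4.86), XTH30 (4.03), RGF7 (3.77), PIP1;5 (2.73), HSP90.1 (2.64), NPQ4 (2.56), AT5G51440 (2.52), HSP70 (2.48), AT5G48570 (2.38), GSTU5 (2.104), XCP2 (1.73), PIP1B (1.59), MLS (1.49), IAA28 (1.41), GSTU24 (1.35), EXPA17 (1.14), CAT1 (1.06), AT3G54500 (0.74), AT5G48940 (0.72) and NDB2 (0.47). It was negative for 24 genes: EXLA2 (-4.86), XTH16 (-3.06), AT1G09750 (-2.76), RGF2 (-2.72), RGF1 (-2.66), RGF3 (-2.38), PLT1 (-2.13), CYP79B2 (-1.95), NAC015 (-1.46), GSTF9 (-1.42), LGO (-1.34), SIM (-1.29), EXLA1 (-1.22), BBM (-1.21), AT1G13930 (-1.19), EXPB1 (-1.18), AT4G26540 (-1.11), MYB66 (-0.86), RR5 (-0.85), RGF4 (-0.83), AT5G56040 (-0.74), GRF1 (-0.73), TPST (-0.57) and MKK5 (-0.56).

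At 5 nM the log2 interaction was positive for 26 genes: PIP1;5 (7.002), GSTU11 (5.87), XTH30 (5.85), RGF7 (5.56), XCP2 (4.24), GSTU5 (3.96), AT5G51440 (3.16), SHV2 (2.96), HSP70 (2.82), XTH17 (2.81), HSP90.1 (2.69), NPQ4 (2.68), AT5G48570 (2.64), IAA28 (2.61), EXPA17 (1.87), PIP1B (1.82), PAL1 (1.63), RHD2 (1.61), AT4G37520 (1.61), GSTU24 (1.32), TIP4;1 (1.23), MLS (1.11), MPK3 (0.78), AT3G54500 (0.67), AT1G34110 (0.63) and AT5G48940 (0.61). It was negative for 21 genes: AT1G09750 (-4.40), XTH16 (-3.60), LGO (-3.33), RGF2 (-3.02), SIM (-2.65), RGF3 (-2.31), AT4G11290 (-2.18), GSTF9 (-1.95), GSO1 (-1.68), EXLA1 (-1.60), AT4G26540 (-1.54), PLT1 (-1.53), AT5G56040 (-1.25), CYP79B2 (-1.17), GRF1 (-1.12), EXPB1 (-0.98), RR5 (-0.95), NAC015 (-0.94), IGMT5 (-0.90), MYB66 (-0.84) and MKK5 (-0.83). The mock libraries enter both tests, so the values at both doses are not independent. For the heat shock genes they include plt2 replicate 1.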

How the results depend on the processing

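Nothing here measures PLT2 protein, and the number of lines, the hour of harvest and the counting of shared reads are not given. Depth outside organelle and ribosomal loci, 3107195 to 4856789 counts a library, limits genes of a few CPM. The alternatives were RLE factors, total-count scaling, DESeq2, limma-voom, no filter on low counts, organelle loci left out, all groups in 1 fit, the mitochondrial share as a covariate, a replicate block and each library left out in turn. Genes called between gPLT2C212S and plt2 under mock numbered 2367 to 4215 over these, and 2371 to 3445 with 1 library left out. PLT2 stayed between 3.06 and 3.43 in all of them. Of 108 named genes with a test, the count that dropped below the threshold was 14 with the mitochondrial share (AT5G48570 aside), 8 with limma-voom, 6 with the replicate block, 5 with total-count scaling, 0 with DESeq2, at most 2 under the remaining planned settings and 2 to 9 without 1 library. Named genes not called in the main fit could not drop. The called ones were largely chosen for a large difference or a small p, so these counts do not describe genes in general. With the mitochondrial share the log2 fold change of AT5G48570 turned to 0.034 (adjusted p 0.980), against -1.86; the cause was not tested.

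Calls between gPLT2 and plt2 under mock, 405 as reported, were 911 with no filter, 130 with the replicate block and 170 to 605 without 1 library. Calls between gPLT2C212S and gPLT2, 1394 as reported, were 853 with total-count scaling and 915 to 1997 without 1 library. Interaction calls at 0.3 nM, 1856 as reported, were 3988 with total-count scaling and 1450 to 2282 without 1 library, and at 5 nM, 2082 as reported, 1271 and 1866 to 2334. Calls at 0.3 nM stayed between 6807 and 8062 and at 5 nM between 6474 and 7623. The cause of these shifts was not tested.

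Same-numbered libraries of both groups did not deviate together (correlations between -0.13 and 0.18 over 5 numbers), so the numbers were not treated as pairs. With the replicate block 2680 genes were called under mock, PLT2 had a log2 fold change of 3.27, and PLT1, NAC015, CYCD3;1, AT5G48570, WRKY48 and XCP2 missed the threshold.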

Other observations

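The groups in this section were chosen after their values were seen, so their counts are descriptions. Genes of starch breakdown were higher in gPLT2C212S in 12 of 14 tested members and lower in 0 (median log2 fold change 0.94), and in 9 and 0 with total-count scaling. ISA3, a debranching enzyme, had 85.1, 92.8, 98.1, 100.1 and 92.7 CPM in gPLT2C212S, against 30.2, 29.1, 40.4, 36.2 and 33.2 CPM in plt2, without overlap (log2 fold change 1.48). PHS2 (1.38), SEX4 (1.32) and SEX1 (1.00), a phosphorylase, a phosphoglucan phosphatase and a glucan water dikinase, were higher too, while LSF1 (0.24) and BAM1 (-0.31) were not called. At 0.3 nM RGF1 9 members were higher and 1 lower, and at 5 nM 12 and 1, where 46.4% and 45.0% of all genes were called. Between gPLT2 and plt2 under mock 3 were higher, and between gPLT2C212S and gPLT2 7.

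The glyoxylate cycle gene MLS was joined by ICL (2.01), the isocitrate lyase of the same cycle, and by PCK1 (0.93), which leads from it to sugars. Among 17 tested genes of that cycle and of fatty acid breakdown 3 were higher and 2 lower, KAT5 (-2.51) and ACX1 (-0.33). Wall glycoproteins were lower under mock: 21 of 33 tested arabinogalactan proteins (0 higher, median -0.78) and 17 of 24 tested extensins (1 higher, median -1.36). At 5 nM 14 of 25 extensins were higher and 6 lower, where 45.0% of all genes were called. The interaction at that dose was positive for 16 of 27 extensins and negative for 2 (median 2.49), against 12.4% of all genes with a called interaction. Many extensins are alike in sequence, so their counts may share reads. Of 92 ribosomal protein genes 1 was higher and 1 lower under mock, 36 and 3 of 93 at 0.3 nM, where 46.4% of all genes were called, and 18 and 10 of 92 at 5 nM (median log2 fold changes 0.06, 0.25 and 0.06). Of 21 kinesin genes, 0 were called under mock, and 12 were higher and 1 lower at each dose. Of all genes, 46.4% were called at 0.3 nM and 45.0% at 5 nM. The kinesins had median log2 fold changes of 0.46 at 0.3 nM and 0.45 at 5 nM, against 0.17 under mock.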
